A study of Mus musculus with 30 samples.

Results

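The contractile apparatus of smooth muscle and myofibroblasts was followed through 10 of its genes in 30 mouse tumors grown from 5 sarcoma lines. The members are Acta2, Tagln, Cnn1, Myh11, Actg2, Mylk, Lmod1, Cald1, Smtn and Myocd; they were chosen by name with earlier results of these data known, and all 10 are among the 48440 genes of the count table. The lines were derived from mouse tumors raised with the carcinogen methylcholanthrene, and each was transplanted under the skin of C57BL/6 mice. There were 4 tumors of the line MCA-943 and 8 of MCA-969, whose growth the study classes as not sensitive to NK1.1+ cells, and, among the lines it classes as sensitive, 8 tumors of MCA-948, 6 of MCA-970 and 4 of MCA-972. The mouse strain is labelled Ncr1Cre for MCA-943 and Ncr1Cre R26DTA for the other lines, and the labels do not say which mouse is meant. In the paper, mice of these genotypes developed the primary tumors, and the hosts of the transplanted lines were C57BL/6 mice. In Ncr1Cre R26DTA mice the Ncr1 promoter drives Cre in NKp46+ lymphocytes, which then make a diphtheria toxin fragment and die, so a difference between MCA-943 and another line cannot be told apart from this label. Each line comes from 1 primary tumor, so the tumors of a line are repeats of that line and not of a class of lines. The labels disagree within MCA-969, where W-1D and W-2D, 2 tumors, are given the opposite sensitivity to the other 6. Hematopoietic cells had been removed with CD45 beads before RNA was extracted, and no other treatment, age or sex is given in the labels. In the paper the lines were grown in hosts given or not given an antibody that depletes NK1.1+ cells. Whether the hosts of these 30 tumors received it is not stated.

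Contractile cells slide filaments of actin over filaments of myosin, and smooth muscle has its own versions of both. Contraction starts when myosin light chain kinase phosphorylates the light chain of myosin, while calponin and caldesmon sit on the actin filament and restrain the motor. Many of these genes are switched on by the factor SRF together with myocardin in smooth muscle or with myocardin-related factors in activated fibroblasts. Myofibroblasts, the matrix-producing fibroblasts of wounds and tumor stroma, are known by alpha smooth muscle actin, the product of Acta2.

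Each tumor had from 27745104 to 46537062 counts on genes. Levels are given as CPM, counts per 1000000 counts after TMM scaling, with the SD among tumors of the same line, and a gene with no count can be as high as 3 counts, which was 0.0602 to 0.113 CPM in these libraries; such limits cover counting error only. The filter on low counts was passed by 9 members and not by Myocd, and a member that passed because of 1 high line had to differ between lines. Because RNA came from whole tumors without hematopoietic cells, fewer cells of a type and less RNA per cell cannot be told apart. Reads of Acta2 and Actg2 and of their close relatives Acta1 and Actc1 may have been shared in counting, and the strand setting of the counting is not given in the sources used here. Genes on the opposite strand overlap Tagln, Mylk, Lmod1, Cald1 and Smtn, and none overlaps the other 5 members. Splice forms, such as the long smooth muscle forms of Cald1 and Mylk, are not separated by counts per gene.

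The contractile genes spanned a wide range over the 5 lines, but they did not set every pair of lines apart. Between MCA-969 and MCA-970 the median absolute log2 difference was 0.522 for the tested members and 0.470 for all genes. Between MCA-943 and MCA-972 it was 0.406 and 0.537. MCA-943 and MCA-972 had the most Acta2 and Tagln and did not differ in these by the test, but MCA-972 had 133 ± 36.8 CPM of Cnn1 against 1.51 ± 0.364 in MCA-943 (SD, n = 4 each), and MCA-943 had 3.33 times the Actg2 of MCA-972. MCA-948 had the lowest mean of 8 members, with 16.5 ± 9.82 CPM of Acta2 (SD, n = 8) and Cnn1 at the limit of counting. Over the 5 lines, edgeR's quasi-likelihood F test called 9 of the 9 members tested at an adjusted p under 0.05, beside 94.1% of all genes tested, so the call itself does not set the members apart. The distance between the highest and the lowest line mean was 4.58 on the log2 scale at the median of the 9 members, beside 1.15 at the median of the 16862 genes tested, a description that the choice of members may have favoured.

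**Figure D1:**
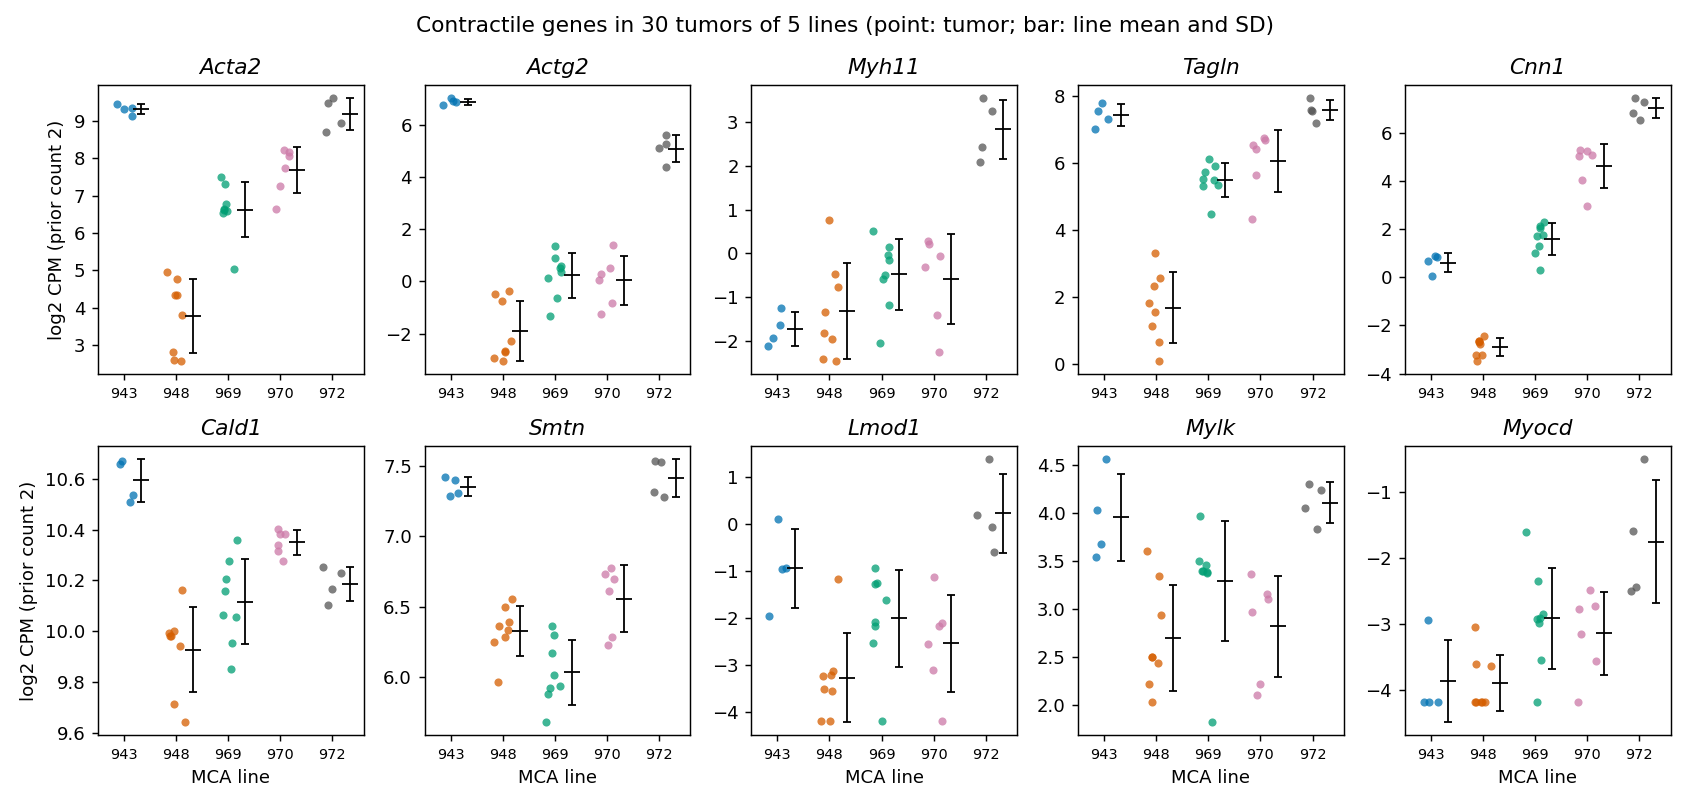
Level of each contractile gene (y axis, log2 CPM with a prior count of 2, own scale per panel) in the 30 tumors, by MCA line (x axis); each point is a tumor, and the bar beside it is the line mean with the SD. MCA-948 lies lowest for Acta2, Tagln, Actg2 and Cnn1. Cnn1 climbs from MCA-948 to MCA-972 with MCA-943 second lowest, and Cald1 spans 0.67 on the log2 scale between line means.

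Acta2 encodes alpha smooth muscle actin and lies at chr19:34241090-34255590 on the minus strand of GRCm38. The RefSeq promoter window of Acta2, from 250 bases before its start to 50 after, is shown because the gene is the best-known SRF target among the members. The capitals mark 2 CArG-like boxes, found 84 and 34 bases before the start used for this window. That start and both boxes lie inside the gene interval given above, so these are not distances from the end of that interval.

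Acta2 promoter, chr19:34255324-34255623, minus strand, GRCm38.p6: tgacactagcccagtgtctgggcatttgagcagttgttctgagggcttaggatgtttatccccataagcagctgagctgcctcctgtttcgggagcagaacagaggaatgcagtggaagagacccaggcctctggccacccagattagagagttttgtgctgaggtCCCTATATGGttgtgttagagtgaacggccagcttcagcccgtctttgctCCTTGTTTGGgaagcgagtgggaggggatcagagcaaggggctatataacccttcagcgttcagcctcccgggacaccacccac

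The CArG box, the DNA element bound by SRF, is CC, then 6 bases that are A or T, then GG, and it is its own reverse complement in form, so 1 search covers both strands; a CArG-like box has at most 1 C or G among the 6. A CArG-like box was in 9.98% of the 32851 RefSeq windows of 300 bases and an exact one in 1.63%. Windows were in the table for Acta2, Cnn1, Lmod1, Cald1 (which has 2), Smtn and Mylk, and of these 7 windows that of Acta2 alone held a CArG-like box; none held an exact one. These are matches of letters and were not tested as binding sites.

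Acta2 was measured at 636, 654, 707 and 564 CPM in the 4 MCA-943 tumors and at 782, 714, 422 and 492.7 CPM in the 4 MCA-972 tumors. It ranged from 101 to 299 CPM in MCA-970 (median 241), from 32.9 to 182 in MCA-969 (median 99.5) and from 5.89 to 31.1 in MCA-948 (median 17). The tumors of MCA-943 and MCA-972 overlapped with each other and lay above every tumor of the other lines, and every MCA-948 tumor lay below every tumor of the other 4. The fitted difference between MCA-943 and MCA-948 was 5.28 on the log2 scale (SE 0.40, adjusted p 2.99e-12), and MCA-972 exceeded MCA-948 36.6-fold (adjusted p 6.35e-12). MCA-943 and MCA-972 differed by 0.09 (SE 0.45, adjusted p 0.887). Neighbours in the order of means were called between MCA-972 and MCA-970 (1.45, adjusted p 4.02e-03), between the lowest lines MCA-969 and MCA-948 (2.73, adjusted p 7.31e-08), and between MCA-970 and MCA-969, where the ranges overlapped and the log2 difference of 1.02 sat at the threshold of 1. The last of these calls was lost with the run of library numbers in the model and without any 1 of 8 tumors, W-2D, W-2G, W-R, a-2D or a-R of MCA-969 or a-1D, a-2D or a-2G of MCA-970. With the run in the model the calls of Acta2 between MCA-970 and MCA-943 and between MCA-970 and MCA-972 ended too. The call between MCA-970 and MCA-972 also ended with the code in the tumor titles as a block.

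Actg2 encodes gamma smooth muscle actin, which is best known from the muscle of gut and bladder, and is at chr6:83512905-83536265 on the minus strand. It was at 129, 107, 119 and 115 CPM in MCA-943 and at 48.3, 20.6, 38.2 and 34.0 CPM in MCA-972. Its highest value in any tumor of the other 3 lines was 2.57 CPM, in MCA-970, and its range in MCA-948 was 0.0676 to 0.720 (median 0.129, 2 to 27 counts). The MCA-943 tumors were thus all above the MCA-972 tumors, and both lines were clear of the rest. MCA-943 exceeded MCA-969 90.8-fold (adjusted p 9.47e-14) and MCA-970 99.4-fold (adjusted p 1.07e-12), and it exceeded MCA-972 by 1.74 on the log2 scale (SE 0.43, adjusted p 1.06e-03). MCA-969 and MCA-970, whose Acta2 was called different, had 1.30 ± 0.685 and 1.17 ± 0.790 CPM of Actg2 (SD, n = 8 and 6; edgeR's adjusted p 0.796). Both were called above MCA-948, at 4.18-fold and 3.81-fold, and both of these calls ended with the run in the model.

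Myh11 encodes the heavy chain of smooth muscle myosin, the most specific of the smooth muscle proteins, and is at chr16:14194535-14291372 on the minus strand. In MCA-972 it was at 9.57, 4.23, 11.7 and 5.37 CPM. Every other line had a mean below 1 CPM, with 0.252 ± 0.0859 in MCA-943 (6 to 15 counts a tumor), 0.482 ± 0.505 in MCA-948, 0.754 ± 0.378 in MCA-969 and 0.732 ± 0.415 in MCA-970. All 4 MCA-972 tumors lay above all others, while the 4 other lines overlapped. MCA-972 exceeded MCA-943 30.1-fold (adjusted p 9.63e-07), MCA-948 16.1-fold (adjusted p 6.69e-08), MCA-969 10.2-fold (adjusted p 1.42e-06) and MCA-970 10.6-fold (adjusted p 8.51e-06). MCA-943, despite its high Acta2, had 1.56 less than MCA-969 on the log2 scale (adjusted p 0.0321) and 1.51 less than MCA-970 (adjusted p 0.0459); both calls ended in limma-voom, without the filter, with the run in the model and without any 1 of W-2G, a-1D or a-1G of MCA-943. The call against MCA-969 also ended without W-R of MCA-969, and that against MCA-970 without any 1 of W-2D, a-1D, a-2D or a-2G of MCA-970. The calls of MCA-972 against MCA-943 and MCA-948 ended with the run in the model, and that against MCA-970 ended with the title code as a block. Per kilobase of exon, Myh11 in MCA-972 reached 1.17 CPM against 338 for Acta2.

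Tagln encodes transgelin or SM22, an actin-bundling protein, and lies at chr9:45929619-45936058 on the minus strand. It was at 161, 187, 224 and 131 CPM in MCA-943 and at 246, 194, 148 and 191 CPM in MCA-972. The medians of the other lines were 89.0 CPM in MCA-970 (20.4 to 109), 45.8 in MCA-969 (22.3 to 70.3) and 3.23 in MCA-948 (1.01 to 9.95). The order of the lines followed that of Acta2 closely, with MCA-943 and MCA-972 overlapping at the top and MCA-948 apart at the bottom. MCA-972 exceeded MCA-948 48.9-fold (adjusted p 2.30e-12) and MCA-943 exceeded it 44.1-fold (adjusted p 2.27e-12), whereas MCA-943 and MCA-972 differed by 0.15 on the log2 scale (SE 0.45, adjusted p 0.800). MCA-970 and MCA-969 differed by 0.70 (adjusted p 0.0752), which was not called. MCA-943 exceeded MCA-970 by 1.19 (adjusted p 0.0121), a call that ended without a-1G of MCA-943 or W-2D of MCA-970, and MCA-972 exceeded it by 1.34 (adjusted p 7.08e-03), which ended with the run in the model. Both of these calls against MCA-970 also ended with the title code as a block.

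Cnn1 encodes calponin 1, which binds actin and slows the myosin motor, and is at chr9:22099216-22109630 on the plus strand. It was at 173, 153, 92.8 and 113 CPM in MCA-972, at 7.76 to 39.4 CPM in MCA-970 (median 32.96) and at 1.18 to 4.85 CPM in MCA-969 (median 3.27). MCA-943 had 0.983, 1.73, 1.78 and 1.54 CPM, and MCA-948 had 1 to 5 counts a tumor, 25 counts in all. No tumor of MCA-972, MCA-970 or MCA-948 overlapped with a tumor of another line, so that the lines formed separate steps except for MCA-969 and MCA-943. Each step between neighbours was called, at 2.25 between MCA-972 and MCA-970 (adjusted p 9.64e-07), 3.14 between MCA-970 and MCA-969 (adjusted p 1.77e-10), 1.07 between MCA-969 and MCA-943 (adjusted p 0.0125) and 4.12 between MCA-943 and MCA-948 (adjusted p 7.50e-08), all on the log2 scale. The step between MCA-969 and MCA-943 ended in limma-voom, with the run in the model and without tumor MCA-943 W-2G or MCA-969 W-1D. In MCA-948 minus MCA-972 the fitted difference was -10.57 (SE 0.43, adjusted p 1.22e-17), the widest of all members in any pair, and it rests on those 25 counts.

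Cald1, Smtn, Lmod1 and Mylk varied less. Cald1 encodes caldesmon, an actin-binding brake that fibroblasts also make in a short form, and it was abundant everywhere, from 980 ± 110 CPM in MCA-948 (SD, n = 8) to 1548 ± 89.4 in MCA-943 (SD, n = 4); none of the 10 pairs reached a log2 difference of 1. Per kilobase of exon, Cald1 stood between 81.4 and 129 CPM in the 5 line means, whereas Acta2 ranged from 9.24 to 359. On this scale Cald1 was above Acta2 in MCA-948 and MCA-969 and below it in the other lines. The scale uses the exon length of the whole gene, 12.041 kilobases for Cald1 and 1.781 for Acta2. A splice form may be shorter than that, so this order rests on the lengths used. Smtn encodes smoothelin, a protein of contractile actin filaments, and was at 163 ± 7.49 and 171 ± 15.8 CPM in MCA-943 and MCA-972 (SD, n = 4 each), with no tumor of another line above 109 CPM. It was called in MCA-943 against MCA-948 (2.02-fold) and MCA-969 (2.46-fold), and in MCA-972 against MCA-948 (2.11-fold) and MCA-969 (2.58-fold); the first of these, with a log2 difference of 1.01, ended with DESeq2, with its size factors, without the filter and without any 1 of 5 tumors, a-1G of MCA-943, W-1D or W-2G of MCA-948, a-2D of MCA-969 or a-1G of MCA-972.

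Mylk encodes myosin light chain kinase, whose action starts contraction, and its line means ran from 6.87 ± 2.86 CPM in MCA-948 to 17.4 ± 2.46 in MCA-972. MCA-943 and MCA-972 exceeded MCA-948 2.34-fold and 2.53-fold (adjusted p 4.48e-04 and 1.76e-04), and they exceeded MCA-970 2.18-fold and 2.35-fold (adjusted p 2.42e-03 and 1.50e-03). The calls of MCA-943 ended without its tumor a-R, which had 23.6 CPM against 11.6 to 16.3 in the others, and those of MCA-972 ended with the run in the model. With the title code as a block, both calls of MCA-972 and that of MCA-943 against MCA-970 ended. No neighbours in the order of the Mylk means were called. Lmod1 encodes leiomodin 1, which starts new actin filaments, and was low, from 21 counts over the 8 MCA-948 tumors, of which 2 had none, to 0.611 to 2.55 CPM in MCA-972 (195 counts). It was called in 6 pairs, the widest being MCA-972 over MCA-948 at 17.01-fold (adjusted p 4.59e-06), which had an adjusted p of 0.619 with the run in the model. The call of MCA-943 over MCA-970 (3.46-fold, adjusted p 0.0324) ended without a-1G of MCA-943 or any 1 of W-1D, W-R or a-2D of MCA-970, and that of MCA-969 over MCA-948 (3.24-fold, adjusted p 0.0283) without W-1D or W-2D of MCA-948 or a-1G of MCA-969. Both also ended with the title code as a block, as did the Lmod1 calls of MCA-972 over MCA-969 and MCA-970.

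Myocd encodes myocardin, the SRF partner that drives the smooth muscle program, and was near the limit of counting in all lines. The 4 MCA-972 tumors had 5, 24, 5 and 10 counts, or 0.122 to 0.655 CPM, whereas 3 of the 4 MCA-943 tumors and 5 of the 8 MCA-948 tumors had none. MCA-969 had 0 to 10 counts a tumor and MCA-970 had 0 to 4. No fold change is given, since no tumor of MCA-943 or MCA-948 had more than 2 counts, below the limit of 3. MCA-943, the line with the highest mean of Acta2, had 2 Myocd counts in all its tumors together.

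Between 2 lines a gene was called at an adjusted p under 0.05 with a log2 difference of at least 1. In MCA-943 minus MCA-948, 7 of 9 members were called, all higher in MCA-943, beside 29.0% of all genes. The other pairs with MCA-948 called 5 members against MCA-969 (background 20.8%), 4 against MCA-970 (29.4%) and 8 against MCA-972 (26.8%), each of them lower in MCA-948. In MCA-943 minus MCA-969, 4 were higher and 2 lower (27.0%), in MCA-943 minus MCA-970, 5 were higher and 2 lower (27.3%), and in MCA-943 minus MCA-972, Actg2 was higher and Cnn1 and Myh11 were lower (25.6%), a share near the background. MCA-972 was higher for 7 members than MCA-969 (20.6%) and for 7 than MCA-970 (17.6%). MCA-970 was higher than MCA-969 for Acta2 and Cnn1 (21.4%), a share near the background. These pairs share tumors, and their counts are not independent of each other.

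**Figure D2:**
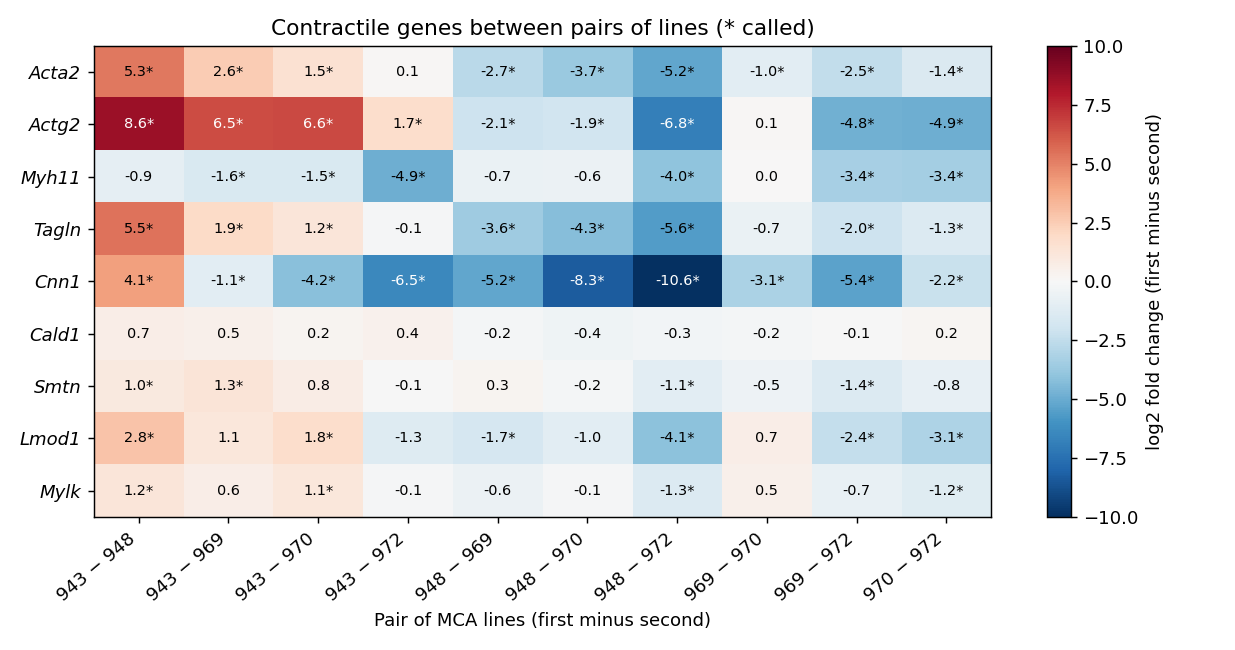
Fitted log2 fold change (colour and printed value) of the 9 tested members (rows) in the 10 pairs of MCA lines (columns, first minus second); an asterisk marks an adjusted p under 0.05 with a log2 difference of at least 1. The column of MCA-943 minus MCA-972 holds 3 asterisks, at Actg2, Myh11 and Cnn1, and the row of Cald1 holds none.

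The library numbers fall into 3 groups of close numbers, here called runs, that are partly tied to the lines. This grouping was made from the numbers alone, and the labels name no batch. The values were also taken within a run where it held both lines. Within run 1, with 6 MCA-969 and 4 MCA-972 tumors, all 7 members called over all tumors were called again, among them Cnn1 with a log2 difference of -5.37. Within run 3, with 4 MCA-943 and 6 MCA-948 tumors, Acta2 (5.25), Tagln (5.63), Actg2 (8.64), Cnn1 (4.27) and Mylk (1.33) were called; Smtn was at 0.98 and Lmod1 did not pass the filter. Run 2 held 2 tumors of MCA-948, 2 of MCA-969 and 6 of MCA-970. Acta2, Tagln and Cnn1 were called between MCA-948 and MCA-970, and Cnn1 was the 1 member called between MCA-948 and MCA-969 and between MCA-969 and MCA-970. Lmod1 turned there to 1.15 higher in MCA-948 than in MCA-969, against -1.69 over all tumors. MCA-943 and MCA-972 share no run; with the run in the model their difference was -5.75 for Cnn1 (adjusted p 3.43e-03), 3.89 for Actg2 (adjusted p 0.0117) and -2.99 for Myh11 (adjusted p 0.0563). With the run in the model 16 of the 56 calls of a member in a pair ended, and 2 changed sign, Myh11 between MCA-943 and MCA-969 and Lmod1 between MCA-948 and MCA-969. Only MCA-948 and MCA-969 have tumors in more than 1 run, so the run terms rest on these lines. Their tumors in run 2 were a-2G and a-R of MCA-948, and W-1D and W-2D of MCA-969, the 2 labelled sensitive in that line. The run is thus mixed with the letter and the label, and why calls ended was not tested.

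To compare the makeup of the contractile genes apart from their level, the counts of 4 members were set against the Acta2 counts of the same tumor; these ratios were chosen after the values were seen. Cnn1 counts were 0.236 ± 0.0549% of Acta2 counts in MCA-943 and 22.1 ± 0.577% in MCA-972 (SD, n = 4 each), and Actg2 counts were 18.5 ± 2.17% and 6.26 ± 2.56%. Myh11 counts were 0.0402 ± 0.0172% in MCA-943 and 1.42 ± 0.948% in MCA-972. For each of these 3 ratios the tumors of the 2 lines did not overlap, which restates the levels above. An exact permutation test of the log2 ratios gave its smallest possible p, 0.0286, for each. Because the ratios were chosen after the values were seen, no conclusion is drawn from this p. Tagln stood at 27.2 ± 3.75% and 33.2 ± 4.92% of Acta2 (p = 0.143 by the same exact permutation test). In the other lines the ratio of Cnn1 to Acta2 was 0.647 ± 0.468% in MCA-948, 3.08 ± 0.979% in MCA-969 and 12.1 ± 2.77% in MCA-970, and the 4 MCA-972 tumors lay between 21.5 and 22.9%. Myh11 counts were 2.71 ± 1.51% of Acta2 counts in MCA-948, above the mean of MCA-972, 0.730 ± 0.368% in MCA-969 and 0.391 ± 0.367% in MCA-970. The ratio of Tagln lay between 14.3 and 67.8% in all 30 tumors.

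**Figure D3:**
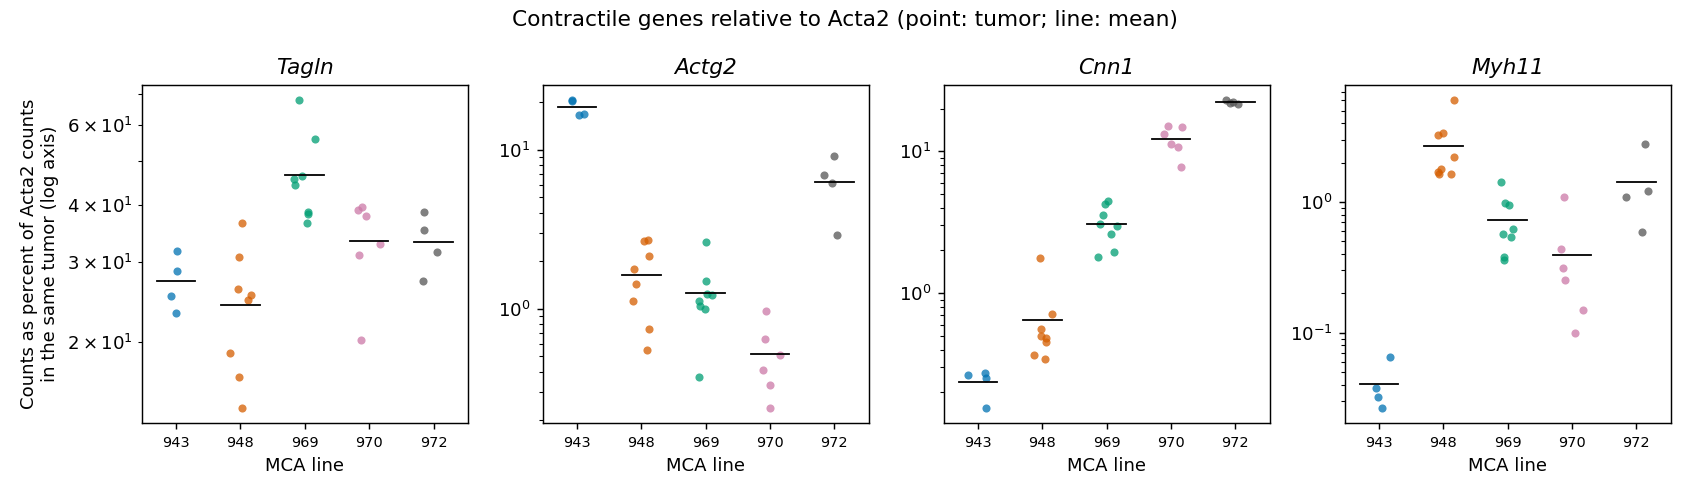
Counts of Tagln, Actg2, Cnn1 and Myh11 as a percent of the Acta2 counts of the same tumor (y axis, log scale, own scale per panel) by MCA line (x axis); points are tumors and bars are line means. MCA-943 has the highest share of Actg2 and the lowest shares of Cnn1 and Myh11, MCA-972 the highest share of Cnn1, and MCA-948 the highest mean share of Myh11.

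Whether contractile genes go with sensitivity to NK1.1+ cells was tested over the 5 line means, since sensitivity belongs to the line. The lines with most Acta2 were MCA-943, which is non-sensitive, and MCA-972, which is sensitive. By two-sided exact permutation, whose smallest p with 2 against 3 lines is 0.1, the p of the 10 members lay between 0.5 and 0.9. The mean log2 CPM of Acta2 was 1.09 higher in the non-sensitive lines (p = 0.8, exact permutation over the 5 lines) and that of Cnn1 was 1.82 lower (p = 0.7, exact permutation).

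The titles of the tumors carry a letter, W or a, whose meaning the labels do not give. Within the 4 lines that have both letters (26 tumors), all 10 members passed the filter and none was called by edgeR, beside 0.350% of all genes. The fitted value of each of the 10 was lower in W, with a median of -0.556 on the log2 scale against 0.00201 for all genes. An unadjusted p under 0.05 was reached by 4 members, Acta2 (-0.57), Tagln (-0.63), Myh11 (-0.76) and Mylk (-0.54), with adjusted p from 0.333 to 0.650, and DESeq2 gave 5 members at that level and called none. With the run in the model 2 members had an unadjusted p under 0.05. The mean log2 CPM of the 10 mural markers was 1.99 in W and 3.16 in a in MCA-948, 3.19 and 4.15 in MCA-970, 3.73 and 3.41 in MCA-969, and 1.64 in the single W tumor and 1.94 in a in MCA-943; its part in the fitted values was not tested. No member differed in its letter effect between lines after adjustment.

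Within a line the contractile genes varied together in part. Acta2 was compared with the 8 other tested members in the 3 lines of at least 6 tumors, 24 relations in all, of which 23 had a positive Pearson r. Of these, 6 passed Benjamini-Hochberg adjustment of the exact permutation p. In MCA-948 these were Tagln (r = 0.907, p = 0.0022, adjusted 0.0396, rho = 0.881, p = 0.0072), Mylk (r = 0.844, p = 0.0118, adjusted 0.0471, rho = 0.857, p = 0.0107) and Myh11 (r = 0.833, p = 0.0098, adjusted 0.0471, rho = 0.810, p = 0.0218), all exact permutation values over 8 tumors, and r was 0.808, 0.890 and 0.810 without the 2 tumors farthest from the median of Acta2. In MCA-969 Tagln passed (r = 0.954, exact p = 0.0033, adjusted 0.0396, rho = 0.690, p = 0.0694), with r = 0.663 without those 2 tumors, and in MCA-970 Tagln (r = 0.970) and Cnn1 (r = 0.972) passed (both adjusted 0.0471 from exact permutation, n = 6; raw p 0.0069 and 0.0111; rho 0.829 and 0.771 with p of 0.0583 and 0.1028), with r of 0.639 and 0.486 over the remaining 4 tumors. No relation passed by the rank correlation, and those of MCA-969 and MCA-970 rest in part on the 2 tumors left out. Within the 6 MCA-948 tumors of run 3 the r of Tagln was 0.900, and within the 6 MCA-969 tumors of run 1 it was 0.808. The other members of MCA-969, none of which passed, had r from -0.185 (Myh11) to 0.448 (Lmod1) within run 1. Cnn1 was at 0.0690 and Mylk at 0.172 there. Over all 8 tumors these 4 had 0.643, 0.798, 0.770 and 0.831, so their relations rest largely on the 2 tumors of the other run. The MCA-970 tumors are all of 1 run.

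Mural cells, the pericytes and smooth muscle of vessel walls, are among the cells that make contractile proteins, so 10 mural markers were measured in the same tumors. All 10 were detected in each line, and their summed level was 646 to 768 CPM in MCA-943, 282 to 579 in MCA-948, 179 to 470 in MCA-969, 513 to 890 in MCA-970 and 473 to 574 in MCA-972, most of it Pdgfrb and Cspg4. The pericyte marker Rgs5 was at 4.35 ± 4.14 CPM in MCA-943 and 1.87 ± 1.08 in MCA-972 (SD, n = 4 each), at 17.1 ± 19.1 in MCA-948 (SD, n = 8), at 23.8 ± 14.1 in MCA-969 (SD, n = 8) and at 46.96 ± 20.9 in MCA-970 (SD, n = 6). The channel genes Kcnj8 and Abcc9 were also lowest in MCA-943 and MCA-972 and highest in MCA-970, with 16.2 ± 8.80 CPM of Abcc9 there against 1.14 ± 0.959 in MCA-943. Pdgfrb and Cspg4 ran otherwise: both were called higher in MCA-943 than in MCA-969, Pdgfrb also than in MCA-948 and Cspg4 also than in MCA-970 and MCA-972. Cox4i2 and Ndufa4l2 ran in a further order, highest in MCA-969 and called higher there than in each other line. Against MCA-970 the log2 difference was 2.85 for Cox4i2 and 3.58 for Ndufa4l2. Of the 10 markers in MCA-943, 4 were called lower when set against MCA-948, 7 against MCA-969, 7 against MCA-970 and 0 against MCA-972, while 1, 2, 1 and 1 respectively were called higher. In these pairs 29.0%, 27.0%, 27.3% and 25.6% of all genes were called in either direction. Of the 10 markers in MCA-972, 5 were called lower against MCA-948, 6 against MCA-969 and 9 against MCA-970, while 0, 1 and 0 were called higher. All genes gave 26.8%, 20.6% and 17.6% there.

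Within lines, the mean log2 CPM of the 10 mural markers, a measure added after the values were seen, was compared with the contractile genes from tumor to tumor. Of the 27 relations with 9 members in 3 lines, 25 had a positive Pearson r, 8 of 9 in MCA-948, 8 of 9 in MCA-969 and 9 of 9 in MCA-970, and 11 passed adjustment of the exact permutation p; whether the lines differ in this was not tested. In MCA-948, where the marker mean ran from 1.45 to 4.13, 7 passed: Mylk (r = 0.962), Tagln (0.939), Myh11 (0.929), Actg2 (0.926), Acta2 (0.861), Cnn1 (0.860) and Lmod1 (0.812), with exact permutation p from 1.74e-04 to 0.0130 and adjusted p from 0.0033 to 0.0351. Without the 2 tumors farthest from the median of the marker mean, r was 0.802 to 0.903 for the first 6 and 0.454 for Lmod1, and within the 6 tumors of run 3 it was 0.901 to 0.961 for the first 6. Cald1 (r = -0.313) and Smtn (r = 0.421) did not pass. The rank correlation passed for the first 6, with rho from 0.857 to 0.976 and exact permutation p from 3.97e-04 to 0.0107, and not for Lmod1 (rho = 0.695, p = 0.0645). In MCA-969 Cnn1 (r = 0.879, exact p = 0.0032; rho = 0.881, p = 0.0072) and Myh11 (r = 0.842, exact p = 0.0074; rho = 0.738, p = 0.0458) passed. In MCA-970 Mylk (r = 0.979, exact p = 0.0083; rho = 0.829, p = 0.0583) and Myh11 (r = 0.952, exact p = 0.0167; rho = 0.771, p = 0.1028) passed, but for Acta2 r was 0.538 and 0.380, neither of which passed (adjusted exact permutation p 0.292 and 0.552). Without the 2 farthest tumors r was 0.723 for Cnn1 and 0.539 for Myh11 in MCA-969, and 0.628 for Mylk and 0.129 for Myh11 in MCA-970, so that the relation of Myh11 in MCA-970 rests on those 2. Whether mural cells are the source of any contractile RNA was not tested.

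**Figure D4:**
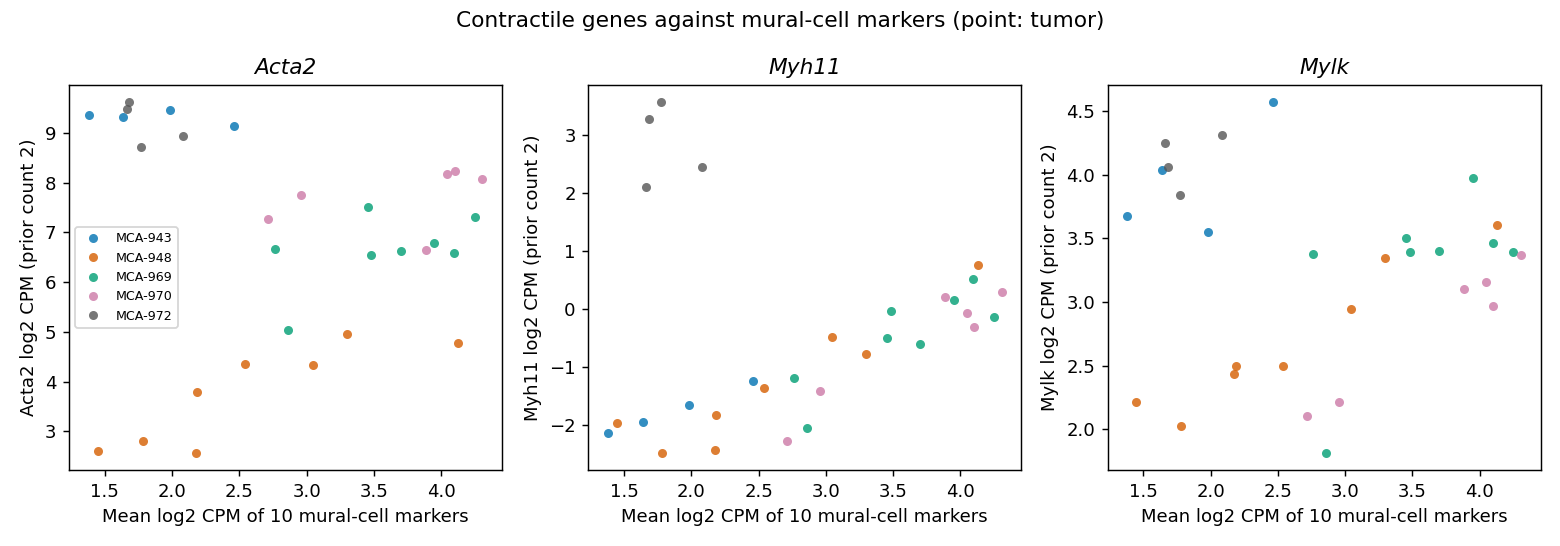
Level of Acta2, Myh11 and Mylk (y axes, log2 CPM with a prior count of 2) against the mean log2 CPM of 10 mural-cell markers (x axis) in the 30 tumors, coloured by line. The MCA-943 and MCA-972 tumors lie at the top for Acta2 with marker means of 1.38 to 2.46, the MCA-948 tumors rise from left to right in all panels, and the MCA-972 tumors stand above all others for Myh11.

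Other cell types gave the following levels. Endothelial markers summed to 67.8 to 171 CPM in MCA-972 and 71.4 to 162 in MCA-943, against 287 to 585 in MCA-970, 90.1 to 295 in MCA-969 and 28.9 to 531 in MCA-948, with all 10 detected in each line. Leukocyte markers summed to 13.2 to 316 CPM over the 30 tumors, and skeletal muscle markers to 2.08 to 65.3 CPM, the highest of these in MCA-948 and mostly Ttn, with Myod1 at 0 in MCA-943, MCA-970 and MCA-972. Fibroblast markers were high in all lines, from 10345 CPM in the lowest MCA-948 tumor to 57158 in the highest MCA-943 tumor. Epithelial markers summed to 349 to 1191 CPM in MCA-969 and at most 148 in the other lines, and Krt8 was at 385 ± 119 CPM in MCA-969 (SD, n = 8). Krt8, Krt18 and Epcam were called higher in MCA-969 than in each other line. Cdh1 went the other way, called lower in MCA-969 than in MCA-943 (3.82 on the log2 scale), MCA-970 and MCA-972. Krt5 and Krt14 did not pass the filter. The part of these cells in the differences of the contractile genes was not tested.

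Among the genes that work with the members, Myl9, the regulatory light chain that Mylk phosphorylates, was the gene most like Acta2. Over the 30 tumors and 16861 other genes, the highest Pearson correlations of log2 CPM with Acta2 were those of Myl9 (0.986), Tagln (0.980), Msrb3 (0.977), Loxl1 (0.975) and Bicc1 (0.972), given as a description because tumors of a line are not independent points. Myl9 was at 130 ± 25.8 CPM in MCA-972, 72.5 ± 9.61 in MCA-943, 37.6 ± 13.5 in MCA-970, 21.2 ± 6.72 in MCA-969 and 2.35 ± 1.55 in MCA-948. Of the other members, Actg2 came at rank 402 (0.856), Cnn1 at 867 (0.793) and Myh11 at 3880 (0.463). The genes most like Myocd were Shroom3 (0.863), Sdk2 (0.801), Grm8 (0.797), Slitrk1 (0.795) and Opcml (0.791), read against the few Myocd counts.

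In the list of light chain phosphorylation and the thin filament, the F test called 16 of 16 genes, beside 94.1% of all genes. The median range of the list was 0.76 on the log2 scale, less than the 1.15 of all genes. Its widest were Myl9, Ppp1r14a, an inhibitor of myosin phosphatase that was at most 0.430 ± 0.166 CPM (MCA-969), and the tropomyosin Tpm2, at 313 ± 23.9 CPM in MCA-972 and 108 ± 23.9 in MCA-948. Against MCA-948, 4 of 16 were called higher in MCA-943, 2 in MCA-969, 2 in MCA-970 and 3 in MCA-972, and none lower, shares below those of all genes in the same pairs. Between MCA-943 and MCA-972 none of the 16 was called, and no other pair called more than 2 in a direction.

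SRF itself was not called over the lines by the F test (50.1 to 64.2 CPM, adjusted p 0.0548). The 13 other genes of its list of cofactors and regulators were, beside 94.1% of all genes, and the median range of the list was 1.06. Mrtfa, which carries actin signals to SRF, was highest in MCA-972 at 109 ± 8.93 CPM and lowest in MCA-969 at 51.4 ± 10.2. The widest of the list was Gata6, a factor of vascular smooth muscle and endoderm, at 0.205 ± 0.0885 CPM in MCA-943 against line means of 10.1 to 22.6 in the others. Csrp1 and Tgfb1i1, LIM proteins that act with SRF, were instead highest in MCA-943, at 487 ± 21.8 and 66.9 ± 3.61 CPM, and lowest in MCA-948, at 70.7 ± 10.8 and 13.4 ± 3.37. MCA-943 and MCA-972 differed in 5 of the 14, with 3 higher in MCA-943 and 2 lower, beside 25.6% of all genes. The pair with the most calls was MCA-943 against MCA-948, with 5 higher in MCA-943 and 1 in MCA-948, beside 29.0% of all genes.

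Genes of dense bodies and adhesions, where contractile filaments are anchored, were ordered otherwise than Acta2. Of 16 tested, 15 were called over the lines by the F test, beside 94.1% of all genes, Des (adjusted p 0.109) being the exception. The median range of the 16 was 1.5 on the log2 scale. The integrin Itga8 was at 39.9 ± 7.82 CPM in MCA-970 and 12.97 ± 2.62 in MCA-972, but at 0.397 ± 0.111 in MCA-943 and 0.348 ± 0.156 in MCA-948. Pgm5 was highest in MCA-969 and MCA-972, both at 3.8 CPM, and Pdlim3 in MCA-972, at 0.774 ± 0.580. Against MCA-943, 4 of the 16 genes were called higher in MCA-969, 6 in MCA-970 and 5 in MCA-972, with 0, 1 and 1 lower. In these pairs 27.0%, 27.3% and 25.6% of all genes were called, and the share for MCA-969 was near this background. Against MCA-948, 5 genes were higher in each of these 3 lines, with 2 lower in MCA-970. All genes gave 20.8%, 29.4% and 26.8% there.

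Myofibroblasts are also known by the matrix they lay down. The list of matrix and TGF-beta response has 12 genes, 3 of which are also among the fibroblast markers. All 12 were called over the lines by the F test, beside 94.1% of all genes, with a median range of 2.68. Against MCA-948, all 12 were called higher in MCA-943, 11 in MCA-970, 11 in MCA-972 and 6 in MCA-969, and none lower. In these pairs 29.0%, 29.4%, 26.8% and 20.8% of all genes were called. Postn, the matrix protein periostin, was at 14728 ± 4976 CPM in MCA-972, 11452 ± 1264 in MCA-943, 7860 ± 3062 in MCA-970, 1039 ± 473 in MCA-948 and 746 ± 257 in MCA-969. Lox, which crosslinks collagen, and Ccn2, a growth factor induced by TGF-beta, were highest in MCA-972 (1181 ± 280.4 and 315 ± 142 CPM) and lowest in MCA-948 (63.9 ± 36.2 and 18.6 ± 10.3). Between MCA-943 and MCA-972, 1 was higher and 1 lower, beside 25.6% of all genes called.

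Paralogs of the members, which serve skeletal muscle, heart or all cells, varied less than the members at the median. Of 18, 11 passed the filter and all 11 were called over the lines, beside 94.1% of all genes, with a median range of 1.27. The widest were Tagln3, Smtnl2 and the skeletal actin Acta1, none above 4.10 CPM in a line mean. The cytoplasmic actin Actb was at line means of 2241 to 4579 CPM and its fellow Actg1 at 654 to 1146 CPM, 2.05-fold and 1.76-fold between the highest and the lowest line, and Actc1, the cardiac actin, had at most 0.202 CPM. In no pair were more than 2 paralogs higher or more than 4 lower, beside 17.6% to 29.4% of all genes called in a pair.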

How the data were processed

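Bulk RNA was measured in 30 tumors of 5 lines. The authors aligned reads to GRCm38 with STAR 2.5.3a, and gene counts came from featureCounts (1.5.2 in the submitters' processing notes; the article names another release); the deposited values are raw counts after duplicate removal by molecular identifiers, per the file headers, and the exon length of each gene. Annotation release, strand and multi-mapping settings are not given in the sources used here. The members and gene lists were chosen with earlier results of these data known.

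Counts were TMM-normalized and filtered by filterByExpr with the line as group (16862 genes kept), and edgeR 4.0.16 fitted 1 mean per line by robust quasi-likelihood (R 4.3.3; biological coefficient of variation 0.221). Calls used a Benjamini-Hochberg adjusted p under 0.05 over all genes and, between pairs, a log2 difference of at least 1 in either direction. The letter was tested with the line as block. Log2 CPM had a prior count of 2. Permutation tests were two-sided and exact (numpy 2.4.6, scipy 1.17.1). Fits were tested on simulated data. Counts of every pair of tumors of a line differed beyond sampling noise (chi-square per gene at least 12.98).

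Genes named are the 10 members; of each pathway list the 3 called by the F test with the widest range of line means; marker lists as sums; and the 5 genes most like Acta2 and Myocd. Mrtfa, Actb, Actg1, Actc1, Srf, Des and single markers of cell types were named after their values were seen. Gene names and positions are from GENCODE M21 (48058 of 48440 matched), promoters from RefSeq on GRCm38.p6; 6 members had a window. Alternatives were DESeq2 1.42.0, limma-voom 3.58.1, DESeq2 size factors, no filter, a mean of at least 1 CPM, the run, the title code, other fold thresholds, prior counts, and leaving out each tumor. Leaving out both W-2D tumors with low Acta2, the ratios to Acta2 and the mural marker mean were chosen after seeing the data.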

Additional observations from a re-analysis of the deposited data

Results flagged for a closer look

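Of 47 groups of a member in a line with at most 1 tumor at 0, 2 held a tumor set apart from the rest of its line by a wide gap, where chance gives about 1 in 20. Both were in tumor W-2D of MCA-969, which had 32.9 CPM of Acta2 against 93.2 in the next tumor and 182 in the highest, and 3.47 CPM of Mylk against 10.3 and 15.7. Over all tested genes the chi-square per gene was 161 to 226 in the 7 pairs of this tumor with others of its line, against 23.01 to 110 in the 21 pairs among the others. It is also 1 of the 2 MCA-969 tumors labelled sensitive. Without it and W-2D of MCA-970, the tumor of that line with the lowest Acta2, 2 of the 56 calls of a member in a pair ended, those of Tagln and Myh11 between MCA-943 and MCA-970, and the call of Acta2 between MCA-969 and MCA-970 held (log2 difference -1.03, adjusted p 7.65e-03).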

How the results depend on the processing

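The counts recomputed were of members called over the lines, in a pair or by the letter. With another setting they also held members at the smallest p between sensitivity classes and relations called with Acta2. These were within 1.5 times the reported counts in 94 of 108 recomputations with another setting and 347 of 356 leaving out 1 tumor. The counts of the F test (9) and of the letter (0) stayed the same without any 1 tumor. No member reversed in its widest pair. With a log2 difference of at least 2, the members called were 2 in MCA-943 minus MCA-969, 2 in MCA-943 minus MCA-970, 1 in MCA-969 minus MCA-970 and 4 in MCA-970 minus MCA-972. With no fold threshold they were 8 in MCA-948 minus MCA-969 and 4 in MCA-969 minus MCA-970. With the run in the model they were 3 in MCA-948 minus MCA-969, 5 in MCA-948 minus MCA-972, 1 in MCA-969 minus MCA-970 and 4 in MCA-970 minus MCA-972, and within run 2 alone 1 in MCA-948 minus MCA-969 and 1 in MCA-969 minus MCA-970; with few tumors a run this also means less data, and the cause was not tested. Tumors of different lines with the same title code did not deviate together (median r of 0.0248 over 29 pairs, 8 over 0.1); with the code as a replicate block, 4 were called in MCA-943 minus MCA-970 and 2 in MCA-970 minus MCA-972, where Acta2 had an adjusted p of 0.414; of the 56 calls of a member in a pair 11 ended. Leaving out 1 tumor gave 4 to 7 in MCA-943 minus MCA-970 (4 without MCA-943 a-1G) and 1 to 2 in MCA-969 minus MCA-970, where Acta2 was lost without any of 8 tumors. Between 0 and 5 of the 56 calls ended with a tumor left out and none changed sign. Without the filter Myocd entered 6 pairs as called, on the few counts given above. Lmod1, Myocd, Cnn1 in MCA-948 and Myh11 outside MCA-972 are limited by depth.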

Other observations

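Among the MCA-972 tumors, which entered no comparison of the letters, 2G has no letter in its title. It had 782 CPM of Acta2, 173 of Cnn1, 48.3 of Actg2 and 2.55 of Lmod1, each the highest of the 4 MCA-972 tumors, and 9.57 CPM of Myh11, the second highest.

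In MCA-948, tumor a-R had the highest Tagln (9.95 CPM), Myh11 (1.64), Actg2 (0.720), Mylk (12.1) and Lmod1 (0.393) of the line, and tumor a-2D the highest Acta2 (31.1). Without a-R, Myh11 was called lower in MCA-948 than in MCA-969 and MCA-970, and Lmod1 lower than in MCA-970, which was not so with all tumors.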
